A study of Mus musculus with 20 samples.

Results

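The 30 genes described here encode subunits of the ionotropic glutamate receptors and of the GABA-A receptors. Of the 21911 protein-coding genes of the mouse annotation, 17 were glutamate receptor genes of this set and 13 were GABA-A receptor genes. They were taken by name, and each was followed through all ATAC-seq and CUT&Tag peaks that lay in its gene body or within 5 kb of it, and through the ATAC consensus regions that the deposited table assigned to it. The genes were long, with a median gene body of 161 kb against 17.4 kb for all protein-coding genes, and 21 of the 30 spanned at least 50 kb.

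Ionotropic receptors are ion channels that open when they bind a transmitter. Glutamate opens channels assembled from AMPA, kainate or NMDA receptor subunits, which let cations in, and delta subunits are their relatives that act mainly as synaptic adhesion proteins. GABA opens pentamers of GABA-A subunits, which conduct chloride. Neurons carry these receptors at synapses, and the glia of the neocortex express them too: oligodendrocyte precursor cells (OPCs) receive synapses from neurons, and astrocytes express AMPA and GABA-A subunits. Tcf4 is a basic helix-loop-helix E protein that binds DNA at E-boxes, sites with the letters CANNTG. H3K27ac marks active promoters and enhancers, H3K4me1 marks enhancers whether active or not, and H3K27me3 is the mark that Polycomb complexes place on silent genes.

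The cells were sorted by GFP as progeny of Nkx2.1-expressing progenitors from the dissected neocortex of pups at postnatal day 7 or 8. The Nkx2.1-Cre driver acts in ventral telencephalic progenitors, so the sort takes their progeny as a mixture of cell types, and GFP came from the Ai3 reporter, which Cre switches on and which both genotypes carried. WT animals carried Nkx2.1-Cre, and Tcf4 cKO animals carried Nkx2.1-Cre and 2 floxed alleles of Tcf4. ATAC-seq and CUT&Tag for H3K4me1, H3K27ac and H3K27me3 each had 2 libraries per genotype, made from 50000 cells. Tcf4 occupancy came from 2 anti-Flag CUT&Tag libraries, each of 200000 nuclei, prepared from sorted Nkx2.1-lineage cells of Tcf4-tag animals, in which Nkx2.1-Cre switches on HA and Flag tags at the C-terminus of endogenous Tcf4, and no library of untagged animals was analysed here. The sex of the animals was not given in the sources used here, which bears on the 4 X-linked genes Gria3, Gabra3, Gabre and Gabrq.

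The lists held 54162 to 72308 peaks in ATAC-seq, 51510 to 72790 for H3K4me1, 22026 to 28413 for H3K27ac, 15085 to 19182 for H3K27me3, and 28606 and 16834 for Tcf4. The number of reads behind them is unknown. Both cKO libraries of H3K4me1 held more peaks than both WT libraries, whereas the genotypes overlapped for the other assays. ATAC peaks were present in all 4 libraries at 3 of 5 OPC promoters (Olig1, Olig2, Sox10) and 3 of 5 astrocyte promoters (Slc1a3, Gfap, Gja1). Both libraries of a genotype had them at 4 of 6 interneuron promoters in WT and 2 of 6 in cKO. For projection neuron promoters the counts were 1 of 5 and 0 of 5. H3K27me3 in both WT libraries marked 5 of 6 interneuron and 4 of 5 projection neuron promoters. It also marked 1 of 5 OPC promoters (Olig1) and 2 of 5 astrocyte promoters (Aldh1l1, Gja1). Peaks at Tcf4 itself do not check the deletion. In sorted bulk cells, fewer cells of a type and less signal per cell cannot be told apart. With 2 libraries against 2, a two-sided exact permutation test cannot go below p = 0.333, so no test is given, and a locus counts as longer or shorter in Tcf4 cKO only where the libraries of the genotypes did not overlap and their means were at least 1.5-fold apart. The main counts stand beside the share of all genes or regions that met the same rule.

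In WT cells the receptor promoters fell into separate chromatin states (the grid of promoter peaks). A promoter here is 1 kb on each side of the annotated gene start, and a mark was counted where both libraries of a genotype had a peak. ATAC peaks were found at 26 of 30 promoters in WT and at the same number in cKO, against 62.4% and 61.4% of all genes. H3K27ac marked 16 of 30 promoters in WT, against 49.5% of all genes, and H3K27me3 marked 6 of 30, against 14.8%. No receptor promoter carried both marks in WT, a state that 8.41% of all genes showed. The remaining 8 promoters carried neither mark in both libraries.

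The acetylated promoters belonged to Gria2 and Gria4, the AMPA subunits, Grik1 and Grik4 of the kainate receptors, Grid1, the NMDA subunits Grin1 and Grin3a, and 9 GABA-A genes (Gabra2, Gabra3, Gabra4, Gabrb1, Gabrb2, Gabrg1, Gabrg3, Gabre and Gabrq). Grin1 encodes the subunit that every NMDA receptor needs to bind its co-agonist glycine. The H3K27me3 promoters belonged to the glutamate-binding NMDA subunits Grin2a, Grin2b and Grin2c, to Grin3b, and to Gabra5 and Gabrd, whose products form GABA-A receptors that lie largely outside synapses. At the annotated starts of the NMDA genes, then, the obligatory subunit was acetylated, and 3 of the 4 Grin2 genes carried H3K27me3. Elsewhere in their loci, Grin1 (2877 and 2880 bp) and Grin2d (2487 and 3574 bp) also held H3K27me3 in the WT libraries. Among the H3K27me3 promoters, Grin3b also had an H3K27ac peak in WT replicate 1 and Gabra5 in WT replicate 2. Promoters with neither mark were those of Gria1, Gria3, Grik2, Grik3, Grik5, Grin2d, Gabra6 and Gabrp. Gria1, Gria3, Grik2 and Grik5 had an H3K27ac peak in WT replicate 1 and none in replicate 2, and Grin2d, Gabra6 and Gabrp had no ATAC peak at the annotated start in any library. Grin2d has other annotated starts, and at these an ATAC peak was present in both libraries of each genotype. Counting any annotated start, Gria1 and Grik2 had H3K27ac in both libraries of each genotype.

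**Figure D1:**
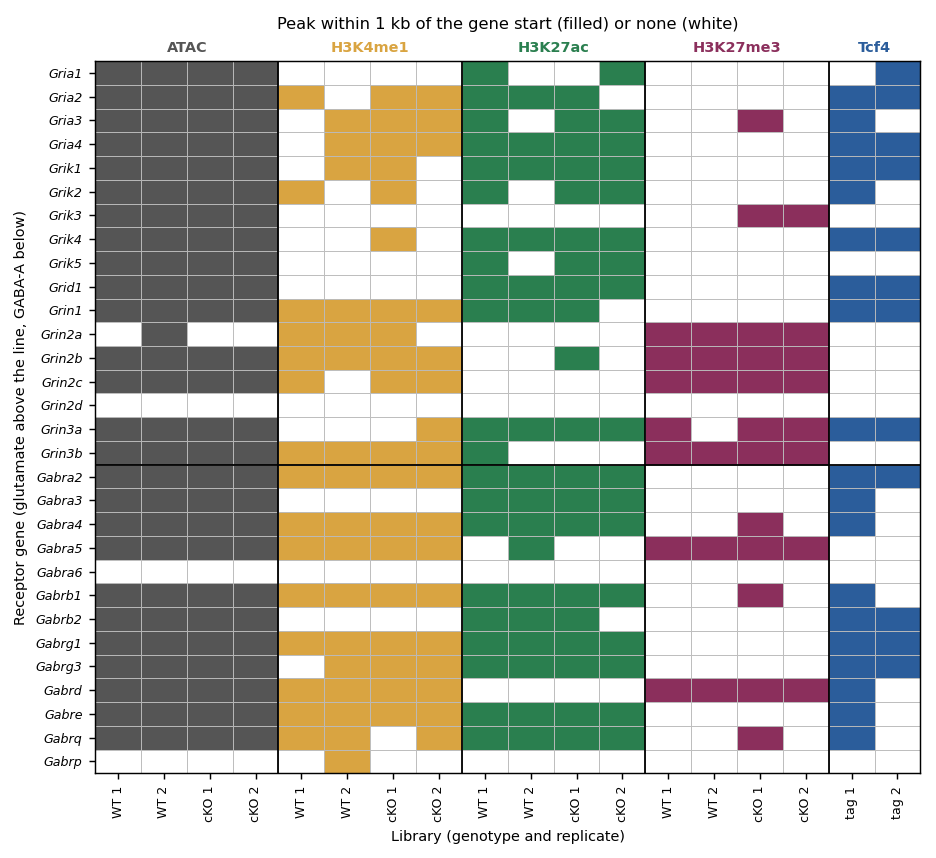
Peaks at the promoters of the 30 receptor genes. Rows are genes, columns are the 16 WT and Tcf4 cKO libraries and the 2 Tcf4-tag libraries, and a filled cell marks a peak within 1 kb of the gene start. The H3K27me3 cells fill mainly the rows of Grin2a, Grin2b, Grin2c, Grin3b, Gabra5 and Gabrd, where the Tcf4 columns are empty apart from Gabrd in 1 library.

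Neighbouring subunit genes could differ in state. Gabra5 and Gabrg3 lie in the same GABA-A cluster on chromosome 7 and are transcribed in the same direction, yet Gabra5 carried H3K27me3 in all 4 libraries (fold enrichment 2.35 and 2.37 in WT, 2.25 and 2.11 in cKO) and Gabrg3 carried H3K27ac in all 4 (5.44 and 4.34 in WT, 5.89 and 3.68 in cKO). In the cluster on chromosome 5, Gabrg1, Gabra2, Gabra4 and Gabrb1 were all acetylated, as were Gabre, Gabra3 and Gabrq on the X chromosome. On chromosome 11, Gabrb2 was acetylated and Gabra6, the subunit known from cerebellar granule cells, had no peak at its start in any library. Gabra4 and Gabrb1 are transcribed away from a shared start region, so their promoter peaks are largely the same peaks.

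The 250 bases before the starts of Gabra5 and Gabrg3 are shown because these neighbours differed in promoter state. Coordinates are of GRCm38 (mm10) and the capitals mark CG dinucleotides, of which the first sequence held 9 and the second 11.
Gabra5, chr7:57510060-57510309, minus strand: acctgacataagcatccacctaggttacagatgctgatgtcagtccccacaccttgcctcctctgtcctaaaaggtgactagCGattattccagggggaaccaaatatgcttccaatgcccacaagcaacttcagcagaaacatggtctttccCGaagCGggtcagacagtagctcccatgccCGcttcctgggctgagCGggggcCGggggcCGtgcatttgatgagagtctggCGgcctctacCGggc
Gabrg3, chr7:57387189-57387438, minus strand: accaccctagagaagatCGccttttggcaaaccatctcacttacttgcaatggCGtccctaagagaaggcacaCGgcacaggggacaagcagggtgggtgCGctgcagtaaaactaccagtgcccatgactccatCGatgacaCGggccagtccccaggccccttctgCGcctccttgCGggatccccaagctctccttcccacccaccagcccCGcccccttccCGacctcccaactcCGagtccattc
Over the 300 bases around the start (250 before and 50 after), the 16 acetylated promoters held a median of 22.5 CG dinucleotides (0 to 49), the 6 H3K27me3 promoters a median of 17 (3 to 28) and the 8 promoters with neither mark a median of 6.5 (1 to 50), against 11 over all genes. The ranges of the classes overlapped throughout, from Gabra3, which was acetylated with 0, to Grik3, which had neither mark in WT with 50.

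In Tcf4 cKO, H3K27ac again marked 16 of 30 promoters, against 46.5% of all genes, but not the same 16. Gria3, Grik2 and Grik5 had peaks in both cKO libraries where 1 WT library lacked one, and Gria2, Grin1 and Gabrb2 each lacked a peak in cKO replicate 2. In each of these 6 genes the difference was a peak missing from a single library. When any annotated start was counted, Grik2 and Gabrb2 had H3K27ac in both libraries of each genotype. H3K27me3 marked 8 of 30 promoters in cKO, against 14.8% of all genes. All 6 WT promoters kept it in both cKO libraries, and Grik3 and Grin3a were added. Grik3, a kainate subunit, had no H3K27me3 peak at its start in either WT library and one in both cKO libraries, with fold enrichments of 2.14 and 2.25. Grin3a, an NMDA subunit that lowers calcium permeability, had a peak in WT replicate 1 (3.78) and in both cKO libraries (3.20 and 3.35), and stayed acetylated in all 4 libraries. These added peaks were weak, with a -log10 q of 1.93 and 2.17 at Grik3 and 1.91 in both cKO libraries at Grin3a, whereas the Grin2c promoter reached 12.9 and 15.96 in WT. Restricting the lists to a -log10 q of 5 or more left H3K27me3 at 4 promoters in WT and at 1 in cKO. H3K4me1 marked 12 promoters in WT and 15 in cKO, against 26.1% and 41.1% of all genes.

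The length of each locus under peaks showed how far the marks spread through the gene bodies (the plot of covered length). For H3K27me3, 17 of the 30 loci held a peak in any library. Of these, 6 were longer in Tcf4 cKO (Grik3, Grik5, Grin1, Grin2d, Grin3a and Gabrb1), against 13.6% of all genes with a peak, and 0 were shorter, against 10.3%. Among genes of at least 50 kb with a peak, the share of longer loci was 18.3%. Of the 21 receptor genes of this length, 4 were longer. These 21 include loci without a peak, so the count does not compare directly with the 18.3%. For H3K27ac, 27 loci held a peak, 0 were longer (3.76% of all genes) and 5 were shorter (Grik3, Grik4, Grin1, Gabrg3 and Gabrq; 10.6%). For ATAC, 1 was longer (Gabrd; 1.68%) and 5 were shorter (Gria1, Grin1, Gabra5, Gabra6 and Gabrg3; 5.44%). For H3K4me1, 9 were longer (Grik2, Grik3, Grin3a, Gabra2, Gabra4, Gabra6, Gabrb2, Gabre and Gabrp), close to the 28.9% of all genes that met the rule, and 1 was shorter (Gabrq; 2.72%).

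The median ratio of cKO to WT covered length was 0.885 for ATAC over the receptor loci with a peak in every library, beside 0.949 over all such genes. The corresponding ratios were 1.36 and 1.29 for H3K4me1, 0.873 and 0.951 for H3K27ac, and 1.06 and 1.04 for H3K27me3. Dividing each locus by the library's total covered length left 1 longer H3K4me1 locus of the 9 (Gabra6; 13.7% of all genes under the same scaling), 5 longer H3K27me3 loci (without Grin2d; 12.9%), 3 shorter ATAC loci (Gria1, Gabra6 and Gabrg3; 4.01%) and 2 shorter H3K27ac loci (Grik3 and Gabrg3; 8.52%). Where only peaks with a -log10 q of 5 or more were counted, none of the H3K27me3 loci was longer. Single libraries also moved the counts. Without cKO replicate 2, 10 H3K27me3 loci were longer. Without WT replicate 2 or without cKO replicate 1, 11 H3K27ac loci were shorter, and without WT replicate 1 or without cKO replicate 2, 3 were. For ATAC, 8 loci were shorter without WT replicate 1 and 3 without WT replicate 2.

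**Figure D2:**
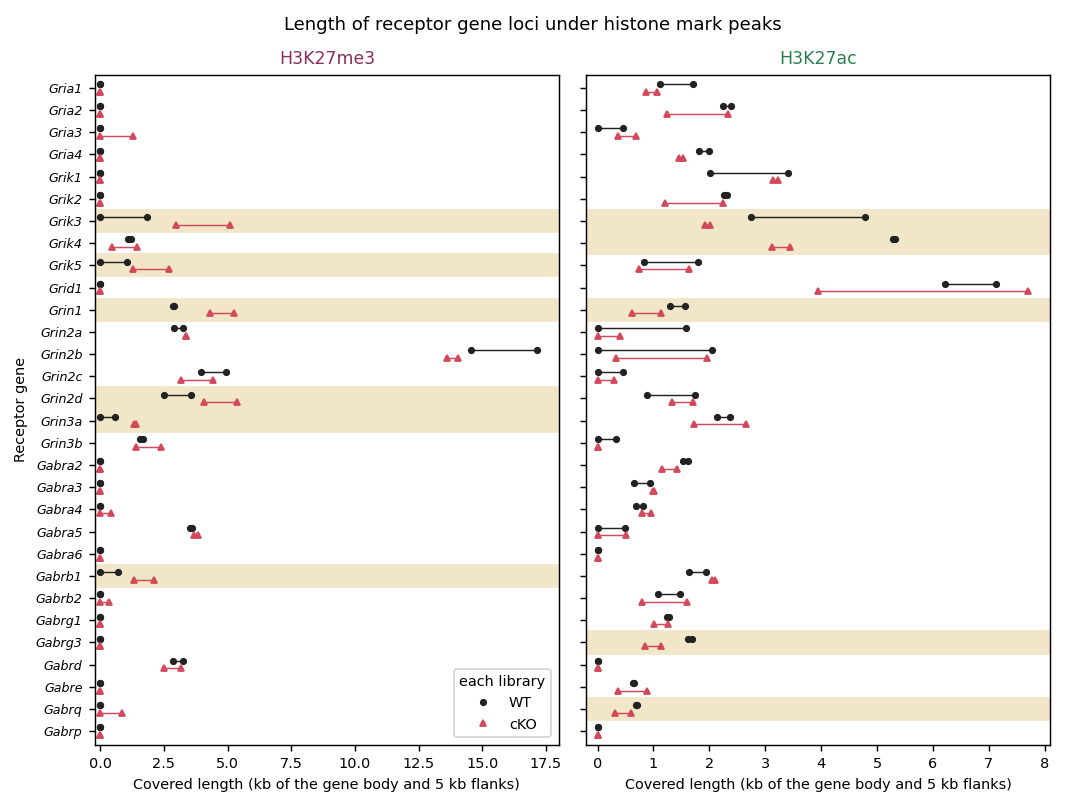
Covered length of the 30 receptor loci under H3K27me3 and H3K27ac peaks. Each point is a library, lines join the 2 libraries of a genotype, the x axis is in kb, and shaded rows meet the rule for a longer or shorter locus. Grin2b held the longest H3K27me3 cover in every library (13600 to 17142 bp).

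Markers of other cells moved with some of these counts. Summed over 5 OPC markers, the H3K27me3 cover was 3.48 and 5.31 kb in WT and 14.97 and 7.36 kb in cKO, and 2 of the 5 (Cspg4 and Sox10) met the rule for longer loci. The H3K27ac cover of the same markers was 3.57 and 2.80 kb in WT and 2.68 and 1.79 kb in cKO, and the same 2 genes were shorter. Summed over 6 interneuron markers, the ATAC cover was 7.48 and 10.5 kb in WT and 6.54 and 5.92 kb in cKO, and 2 of the 6 (Gad2 and Sst) were shorter. Over 5 projection neuron markers it was 8.16 and 10.5 kb against 7.26 and 7.73 kb, with 1 shorter (Neurod2), and over 4 microglia markers 11.3 and 13.04 kb against 9.31 and 9.44 kb, with 2 shorter (Csf1r and P2ry12). Over 5 astrocyte markers the ATAC libraries overlapped (13.4 and 16.5 kb against 17.4 and 15.1 kb), as they did over 4 oligodendrocyte markers (11.96 and 16.1 kb against 13.1 and 12.5 kb). Aqp4 was longer in ATAC, Gfap longer under H3K27me3 and Myrf shorter under H3K27ac, where the oligodendrocyte sums were 6.63 and 5.91 kb against 5.64 and 5.01 kb. Over 3 endothelial markers the ATAC cover was 3.09 and 5.57 kb against 3.73 and 2.97 kb and the H3K27ac cover 0.943 and 0.528 kb against 0 and 0 kb, with Pecam1 shorter in both. Neurod6 was shorter under H3K27me3, and under H3K4me1, Pdgfra, Aqp4, Gja1, Slc17a7, Cx3cr1 and Cdh5 were among the longer loci. None of the 6 interneuron, 5 projection neuron, 4 microglia or 3 endothelial promoters carried H3K27ac in both libraries of either genotype. The counts in WT and cKO were 1 and 0 of 5 OPC promoters and 2 and 1 of 4 oligodendrocyte promoters. For astrocyte promoters they were 1 and 1 of 5. The part of these cell types in the receptor loci was not tested.

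Among the AMPA subunits, Gria1 showed a difference in ATAC alone. Its locus was covered over 2567 and 3525 bp in WT and over 2216 and 1105 bp in cKO, so every cKO library lay below both WT libraries and the WT mean was 1.83-fold higher. The peak at its start was present in all 4 libraries, with fold enrichments of 5.69 and 6.39 in WT and 6.22 and 5.94 in cKO. Gria2, the subunit that makes AMPA receptors impermeable to calcium, Gria3 and Gria4 met the rule in no assay. For Gria2 the ATAC cover was 4311 and 5076 bp in WT and 4446 and 4189 bp in cKO, and the libraries overlapped. The ATAC cover of Gria3 ranged from 1662 to 4509 bp, with both extremes in WT, and that of Gria4 from 2413 to 3061 bp. No AMPA locus held an H3K27me3 peak in more than 1 library, and the single one was at Gria3 in cKO replicate 1.

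Among the kainate genes, Grik3 met the rule in 3 marks. Its H3K27me3 cover was 0 and 1835 bp in WT and 5099 and 2971 bp in cKO, with a mean 4.40-fold higher in cKO. Its H3K27ac cover was 4781 and 2742 bp in WT and 1927 and 2009 bp in cKO, a mean 1.91-fold higher in WT. Both marks separated the genotypes without overlap, in opposite directions, and both held after scaling. Neither met the rule with peaks of a -log10 q of 5 or more, where cKO minus WT was -0.0155 kb for H3K27ac and 0 kb for H3K27me3. The H3K27ac difference also fell short of the rule without WT replicate 1. The H3K4me1 cover of Grik3 was 6066 and 3479 bp in WT and 6943 and 8674 bp in cKO, and fell below the rule after scaling. Its ATAC cover overlapped (9123 and 13761 bp in WT, 11489 and 9835 bp in cKO). The map of the locus shows where the H3K27me3 peaks lay: besides the start, an intronic element 146203 bp downstream was present in both cKO libraries (2.86 and 3.37) and in no WT library. At 44388 bp, an intronic element with Tcf4 had H3K27ac in both WT libraries (2.90 and 2.89) and in cKO replicate 1 (3.26) but not in replicate 2.

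**Figure D3:**
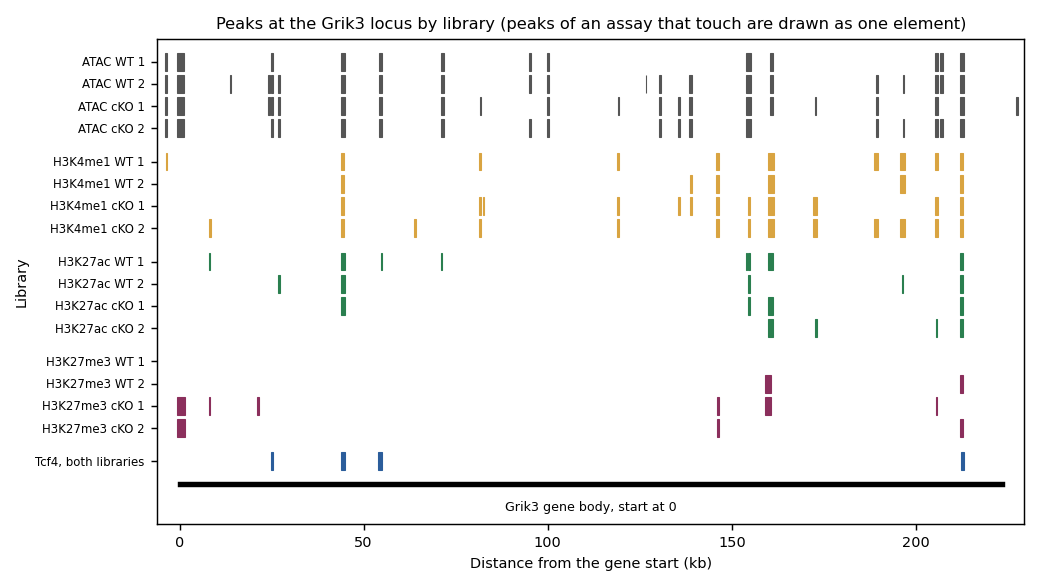
Peaks along Grik3 in each library. The x axis is the distance from the gene start in kb, each row is a library, the blue row holds the 4 Tcf4 regions found in both Tcf4-tag libraries, and touching peaks of an assay are drawn as 1 element. The H3K27me3 block at the start appears in both cKO rows and in neither WT row.

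In the consensus table, each region has 1 pooled mean of log2 normalized reads per genotype, made by the authors from their 2 libraries. Within Grik3, 3 regions were lower in cKO by more than 0.5 on this scale, although the table assigned them to a microRNA gene in the locus. The region 25089 bp from the start had means of 6.74 in WT and 5.49 in cKO, a difference of -1.25, and its peaks had fold enrichments of 5.52 and 4.83 in WT and 3.70 and 3.98 in cKO. The region at 44415 bp differed by -0.84 (8.10 in WT, 7.26 in cKO). The third, at 95175 bp, differed by -0.75, with peaks in both WT libraries (5.16 and 5.77) and in 1 cKO library (3.74). The first and the second held Tcf4 regions. At the Grik3 promoter the means were 9.05 and 8.62, a difference of -0.43.

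Grik4, which encodes a high-affinity kainate subunit, showed less H3K27ac along its gene body. The cover was 5287 and 5324 bp in WT and 3125 and 3450 bp in cKO, a WT mean 1.61-fold higher. Scaling by the total cover took it below the rule, as did counting only peaks with a -log10 q of 5 or more. Intronic H3K27ac elements at 413958 bp (fold enrichment 4.91 and 5.69) and at 193991 bp (3.92 and 3.64) were present in both WT libraries and in no cKO library. The first overlapped a Tcf4 region. The largest ATAC difference of the set was a region upstream of Grik4 (-20097 bp from the start), with means of 2.93 in WT and 5.38 in cKO (a difference of 2.45). Peaks were found there in both cKO libraries (6.92 and 6.03) and in no WT library, and the table annotates it as a 3' untranslated region.

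Grik5, the other high-affinity subunit, was longer under H3K27me3 in cKO (2720 and 1279 bp against 1058 and 0 bp in WT). The element lay at the 3' end of the gene, 62086 bp from the start, and its -log10 q was 1.14 in the WT library and 1.51 and 1.05 in cKO. Grik1 met no rule for covered length. It did hold 2 intronic consensus regions that were higher in cKO, at 177315 bp (5.49 against 6.37, difference 0.88) and 115926 bp (6.52 against 7.33, difference 0.82), although the peak enrichments of the genotypes overlapped at both. In the same gene, 3 intronic ATAC elements were found in both WT libraries and no cKO library and 1 in the reverse pattern. Grik2 was longer under H3K4me1 in cKO (5160 and 4036 bp against 2796 and 3250 bp), and its consensus region at 142231 bp had means of 5.75 in WT and 4.72 in cKO (difference -1.03), with peaks in both WT libraries (7.46 and 10.2) and 1 cKO library (5.45).

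Grid1, the delta subunit, is the longest of the 30 genes (763 kb) and met no covered-length rule. Its H3K27ac cover was 7120 and 6220 bp in WT and 7705 and 3938 bp in cKO. An intronic element 338806 bp from the start had H3K27ac in both WT libraries (3.77 and 3.75) and in no cKO library. The ATAC consensus region at this element had means of 6.67 in WT and 5.78 in cKO, a difference of -0.89, with peak enrichments of 8.70 and 8.89 in WT and 6.25 and 4.58 in cKO. It also held a Tcf4 region. In the opposite direction, intronic H3K27ac elements at 648530 bp (5.18 and 4.14) and 675228 bp (7.25 and 5.26) were present in both cKO libraries and in no WT library, so H3K27ac elements of both patterns occurred in this gene.

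Among the NMDA genes, Grin1 was shorter under both active measures and longer under H3K27me3. Its ATAC cover was 3883 and 4030 bp in WT and 2495 and 2706 bp in cKO, its H3K27ac cover 1573 and 1287 bp against 1143 and 622 bp, and its H3K27me3 cover 2877 and 2880 bp against 5267 and 4293 bp. The genotypes did not overlap in any of these 3 assays, and the means differed 1.52-fold, 1.62-fold and 1.66-fold, although scaling by total cover took ATAC and H3K27ac below the rule. An exonic H3K27me3 element 6863 bp from the start was present in both cKO libraries (2.68 and 2.75) and in no WT library. The consensus region at 13794 bp, which held Tcf4, differed by -0.49 (7.52 in WT, 7.04 in cKO). The window of this gene also takes in Lrrc26 and Tmem210.

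Grin2b, a subunit that predominates early in life, was the most heavily covered by H3K27me3. It held 14555 and 17142 bp in WT and 13600 and 14034 bp in cKO, and 5 of its 11 H3K27me3 elements were present in all 4 libraries. Fold enrichments at its start were 1.61 and 1.54 in WT and 1.64 and 1.61 in cKO. Of its consensus regions, 2 intronic ones were higher in cKO, at 265654 bp (5.84 against 6.41, difference 0.56), where all 4 libraries had H3K27me3, and, outside any H3K27me3 peak, at 162932 bp (4.84 against 5.47, difference 0.63). Grin2a held 3253 and 2896 bp of H3K27me3 in WT and 3378 and 3374 bp in cKO, and Grin2c 3953 and 4958 bp against 3184 and 4412 bp; their genotypes did not differ by the rule. Grin2d was longer in cKO (5355 and 4073 bp against 2487 and 3574 bp), but its ratio, 1.56, did not hold after scaling. Grin3a was longer under H3K27me3 (1332 and 1387 bp against 563 and 0 bp) and under H3K4me1 (3878 and 4863 bp against 2454 and 2485 bp). A consensus region upstream of Grin3a (-31434 bp from the start) had means of 6.11 in WT and 4.56 in cKO, a difference of -1.55, with H3K27ac in both WT libraries and no cKO library. The windows of Grin2c, Grin2d, Grin3a and Grin3b also take in parts of neighbouring genes (Fdxr and Tmem104, Grwd1 and Kdelr1, Ppp3r2 and Rnf20, and Tmem259 and Wdr18, in that order). Grin3b held 1550 and 1667 bp of H3K27me3 in WT and 2385 and 1391 bp in cKO, and overlapped.

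Of the GABA-A alpha genes, Gabra5 met the rule for a shorter ATAC locus and kept its H3K27me3. Gabra5 did not meet the ATAC rule after scaling, with peaks of a -log10 q of 5 or more, or without WT replicate 2. Its ATAC cover was 1144 and 1948 bp in WT and 932 and 973 bp in cKO, and its promoter region had means of 7.06 and 6.47, a difference of -0.59, with enrichments of 7.22 and 8.49 in WT and 5.97 and 6.25 in cKO. It was the only receptor promoter past 0.5; over the 28 promoter regions assigned to the genes, differences ran from -0.59 to 0.22 and 24 were below 0, as were 73.5% of all 13909 promoter regions. The median was -0.19 for the 28 and -0.11 for all promoters. Centred on the median of all regions, the Gabra5 promoter difference was -0.49. The H3K27me3 cover of Gabra5 was 3605 and 3543 bp in WT and 3691 and 3857 bp in cKO. Gabra6 had 1 ATAC peak, in an exon, of 208 and 200 bp in the WT libraries and none in cKO, and H3K4me1 of 0 and 358 bp in WT and 497 and 440 bp in cKO. A region upstream of it (-47091 bp from the start) differed by -0.52. Gabra2, an alpha subunit of synaptic receptors, and Gabra4 were longer under H3K4me1 in cKO, at 2448 and 2221 bp against 1174 and 1827 bp and at 1098 and 1075 bp against 503 and 832 bp. Gabra3 met no rule, with an H3K27ac cover of 650 and 938 bp in WT and 1008 and 987 bp in cKO.

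Of the beta genes, Gabrb1 was longer under H3K27me3 in cKO (2120 and 1311 bp against 0 and 684 bp). The main element lay 42474 bp from the annotated start, at a second promoter of the gene that held Tcf4 and H3K27ac in both WT libraries, and its -log10 q was 2.92 and 3.05 in cKO and 1.64 in WT replicate 2. Its intronic consensus region at 472147 bp differed by -1.19 (5.79 in WT, 4.60 in cKO; enrichments of 8.88 and 7.48 against 5.25 and 5.28). Gabrb2 was longer under H3K4me1 (3904 and 2741 bp against 1656 and 2118 bp) and held an intronic region at 186748 bp with means of 4.93 in WT and 5.77 in cKO, a difference of 0.84.

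The gamma genes differed from each other. Gabrg3 had an ATAC cover of 2407 and 4776 bp in WT and 1320 and 1221 bp in cKO, a WT mean 2.83-fold higher, and an H3K27ac cover of 1612 and 1681 bp against 1131 and 852 bp, 1.66-fold higher. Both held after scaling, but the H3K27ac difference turned (0.0325 kb) with the stricter peaks and fell short of the rule without cKO replicate 2. An intronic ATAC element 543241 bp from its start was present in both WT libraries (4.86 and 8.71) and in no cKO library, and its promoter region differed by -0.42. Gabrg1 met no rule for covered length. Its ATAC cover was 1615 and 1640 bp in WT and 1599 and 1615 bp in cKO, and its H3K27ac cover 1236 and 1274 bp against 1006 and 1257 bp, while its H3K4me1 cover ran from 846 to 1957 bp. The ATAC enrichments at its promoter did not overlap, at 9.09 and 9.71 in WT and 7.46 and 7.04 in cKO. Of the other subunits, Gabrd had more ATAC cover in cKO (1314 and 1283 bp against 673 and 958 bp) while its H3K27me3 cover overlapped (3246 and 2842 bp against 3185 and 2495 bp). Gabrq was shorter under H3K27ac (605 and 307 bp against 693 and 706 bp) and H3K4me1 (0 and 575 bp against 698 and 891 bp), Gabre was longer under H3K4me1 (897 and 1089 bp against 392 and 687 bp), and Gabrp, a subunit of peripheral tissues, was longer under H3K4me1 (933 and 1075 bp against 501 and 744 bp), with no H3K27ac or H3K27me3 peak.

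Counted element by element, after merging the peaks of the 4 libraries of an assay, the receptor loci lay near the genome for most patterns. ATAC elements found in both cKO libraries and no WT library numbered 9 of 244, against 3.49% of all ATAC elements, and the reverse pattern numbered 10 (4.83% of all). For H3K4me1 the counts were 18 and 5 of 329 (7.51% and 2.64% of all), and for H3K27ac 2 and 3 of 125 (2.53% and 4.23%). For H3K27me3, 4 of 40 elements were found in both cKO libraries and no WT library, against 5.36% of all elements, and 0 showed the reverse, against 4.05%. The 4 lay at Grik3 (2), Grin1 and Grin2b, with -log10 q values from 1.18 to 2.63.

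By the symbols of the table, 47 consensus regions were assigned to 27 of the genes, and none to Grin2a, Grin2c or Gabrp. Their differences had a median of -0.15, beside -0.10 over all 32120 regions. Of the 47, 4 were higher in cKO by more than 0.5 (2 at Grik1, 1 each at Grik4 and Gabrb2), against 8.38% of all regions, and 4 were lower (Grik2, Grin3a, Gabra5 and Gabra6), against 12.6%. Centred on the median of all regions, Gabra5 and Gabra6 no longer passed. When regions were taken by position in the gene body with 5 kb on each side, 82 were found, of which 5 were higher and 7 lower; the plot of consensus regions shows both sets. Of the 7, 3 lay in Grik3 and 3 held Tcf4 regions (2 in Grik3, 1 in Grid1). Regions with differences within 0.5 held Tcf4 as well, among them the promoters of Gria4 and Gabra2 (-0.12 each). How often lower, higher and other regions hold Tcf4 genome-wide was not counted.

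**Figure D4:**
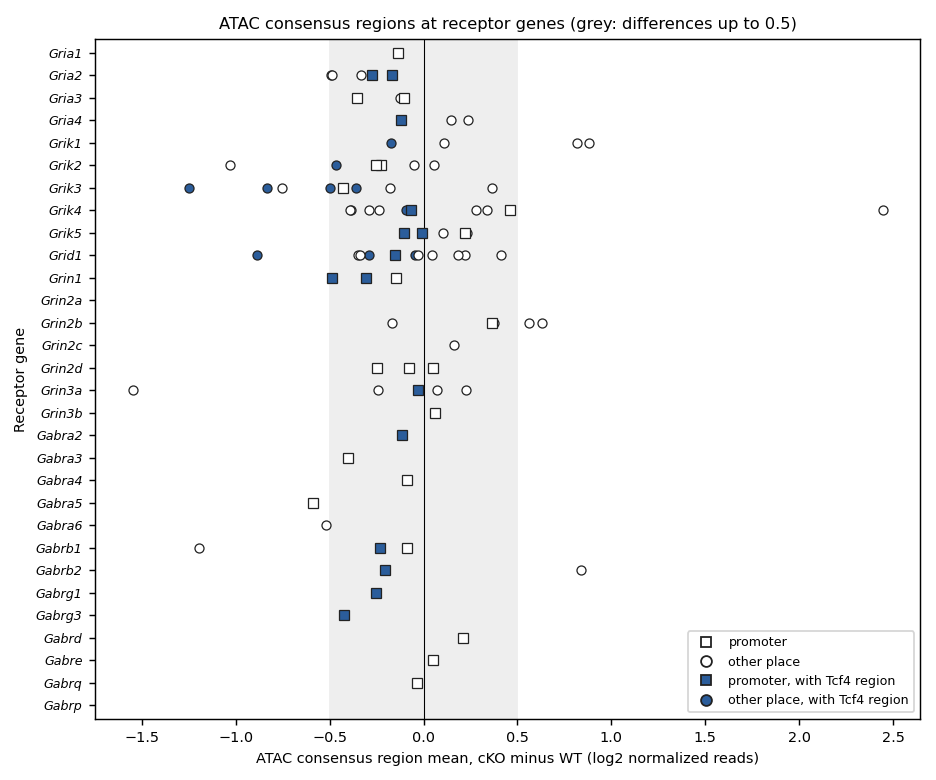
Differences of the ATAC consensus regions at each receptor gene. The x axis is the cKO mean minus the WT mean in log2 normalized reads, squares are regions the table annotates as a promoter of any gene, filled symbols held a Tcf4 region found in both libraries, and the grey band spans differences up to 0.5. The region farthest to the right lies upstream of Grik4. Filled symbols lie within the band at many genes, and those past it lie in Grik3 and Grid1.

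Tcf4 was found in both Tcf4-tag libraries at 28 regions in 15 of the 30 loci, from 14083 such regions genome-wide. Over all genes, 48.5% of loci held one. Among genes of at least 50 kb the share was 71.8%, and 14 of the 21 receptor genes of that length held one. Grid1 held 5, Grik3 4 and Grik4 3, and Gria2, Grik5, Grin1 and Gabrg1 held 2 each. Single regions were found at Gria4, Grik1, Grik2, Grin3a, Gabra2, Gabrb1, Gabrb2 and Gabrg3. No region was found in both libraries at Gria1, Gria3, the 4 Grin2 genes, Grin3b, or the other 8 GABA-A genes. Of the 28 regions, 25 had an ATAC peak in all 4 ATAC libraries (88.6% of all Tcf4 regions did) and 21 had H3K27ac in both WT libraries (74.2% of all); the second Gabrg1 region, 80380 bp from its start, had no ATAC peak in any library.

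At promoters, Tcf4 peaks of both libraries were found at 11 of the 30 genes, against 35.4% of all genes. All 11 were among the 16 acetylated promoters (68.8%), and among all genes with acetylated promoters without H3K27me3 the share was 66.8%. Of the 6 receptor promoters with H3K27me3 none had Tcf4 in both libraries, against 6.96% of all genes in this state, and of the 8 with neither mark none had it, against 3.27%. Fold enrichments at the 28 regions ran from 2.96 to 9.05 (the plot of Tcf4 regions). The strongest was the intronic Grik4 region 414001 bp from the start, with 6.65 and 9.05, followed by the Gria4 promoter with 7.28 and 7.63.

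E-boxes were searched as the letters CANNTG, which read the same on both strands, and as CAGCTG, which is a subset of them, within 75 bp of the summit. CANNTG was found in 14 of the 28 receptor regions (50%), in 46.5% of all regions found in both libraries, and in 49.2% of equal windows at the centres of all ATAC consensus regions. CAGCTG was found in 5 of 28 (17.9%), in 15.1% and in 12.9%. Within 30 bp the shares for CANNTG were 21.4%, 23.3% and 23.8%. At this window size the letters were thus about as frequent at receptor regions as at open chromatin at large. The 6 summits shown have an E-box and were taken first from regions whose ATAC means differed by over 0.5 and then by Tcf4 enrichment, and the capitals mark every CANNTG (GRCm38 coordinates).
Grid1, chr14:35159048-35159198, plus strand: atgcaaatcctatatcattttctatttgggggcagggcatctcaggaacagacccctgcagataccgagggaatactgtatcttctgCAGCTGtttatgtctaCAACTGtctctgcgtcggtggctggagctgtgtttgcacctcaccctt
Grik3, chr4:125534905-125535055, plus strand: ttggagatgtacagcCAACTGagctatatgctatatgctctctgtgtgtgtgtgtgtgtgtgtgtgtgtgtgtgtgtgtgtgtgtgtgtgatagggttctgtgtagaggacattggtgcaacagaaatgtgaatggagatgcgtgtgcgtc
Grik3, chr4:125515738-125515888, plus strand: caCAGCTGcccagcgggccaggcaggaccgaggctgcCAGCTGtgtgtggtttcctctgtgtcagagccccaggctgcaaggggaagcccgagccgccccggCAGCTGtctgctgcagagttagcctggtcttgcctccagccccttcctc
Grik4, chr9:42530417-42530567, plus strand: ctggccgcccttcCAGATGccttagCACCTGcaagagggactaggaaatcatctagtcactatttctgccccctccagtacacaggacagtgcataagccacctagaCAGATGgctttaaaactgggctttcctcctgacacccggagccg
Gabra2, chr5:71096028-71096178, plus strand: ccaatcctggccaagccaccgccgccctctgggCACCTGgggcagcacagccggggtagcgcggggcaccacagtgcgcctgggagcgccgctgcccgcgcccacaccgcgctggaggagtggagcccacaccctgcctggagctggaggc
Gabrg1, chr5:70843034-70843184, plus strand: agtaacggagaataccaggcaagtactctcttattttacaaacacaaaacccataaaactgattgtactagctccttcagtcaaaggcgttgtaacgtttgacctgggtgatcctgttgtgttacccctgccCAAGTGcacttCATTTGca
The first lies in an intron of Grid1, in the region that differed by -0.89 and lacked H3K27ac in cKO, with Tcf4 enrichments of 6.61 and 5.69. The second and the third lie in introns of Grik3, with enrichments of 4.81 and 6.80 and of 3.32 and 3.91, and the third holds CAGCTG 3 times. The Grik4 sequence is the strongest region named above, where H3K27ac was present in WT alone. The Gabra2 and Gabrg1 sequences are centred at -254 and -492 bp from the gene starts, at promoters acetylated in all 4 libraries whose ATAC means differed by -0.12 and -0.25.

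**Figure D5:**
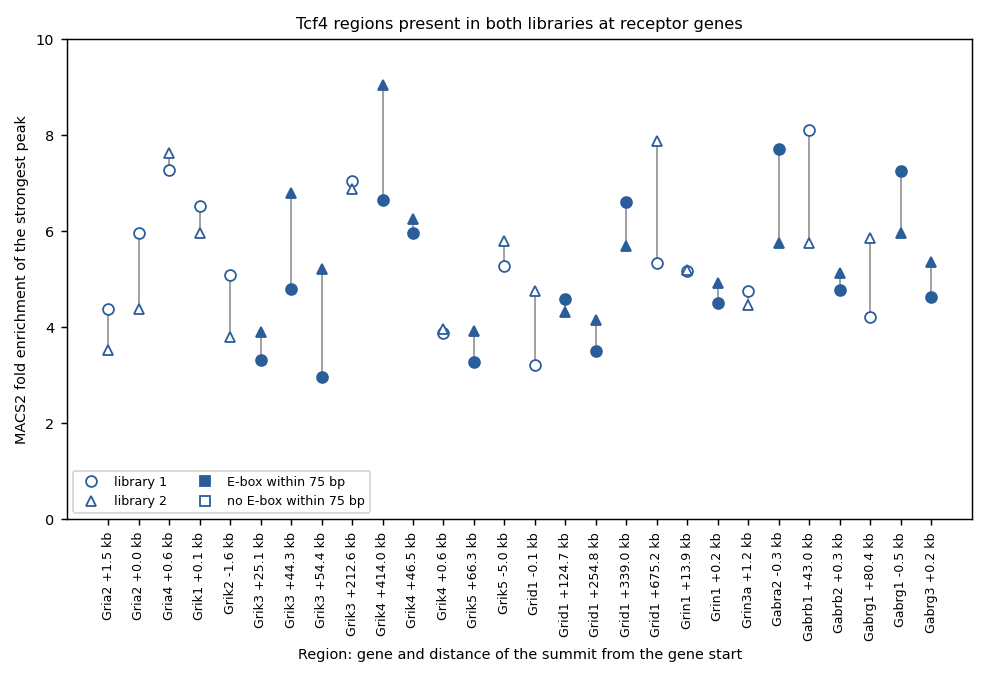
Tcf4 regions found in both Tcf4-tag libraries at receptor genes. Each position on the x axis is a region, named by its gene and the distance of the summit from the gene start in kb; circles and triangles are the fold enrichments of library 1 and library 2, and filled symbols have an E-box within 75 bp. Enrichments span 2.96 to 9.05, and 14 of the 28 regions are filled.

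The partners of these receptors gave similar counts. Of 33 genes for auxiliary subunits, synaptic scaffolds and the synthesis or transport of glutamate and GABA, 17 had H3K27ac at the promoter in both WT libraries and 10 had H3K27me3, among them Gad2, Slc32a1 and Slc17a6, which make or load the transmitters in neurons. In Tcf4 cKO the counts were 16 and 12. By covered length, 4 of 11 AMPA auxiliary genes (Cacng5, Cnih3, Shisa6 and Shisa9) and 1 of 11 scaffold genes (Dlg4) were shorter under H3K27ac, and 0 of either list were longer. Under H3K27me3, 4 were longer (Cnih3, Shisa9, Dlg2 and Pick1) and 1 shorter (Slc1a2, an astrocyte glutamate transporter). Under ATAC, Gsg1l was longer and Gad2 and Slc32a1 shorter, and under H3K4me1, 7 were longer (Cacng2, Cacng4, Dlg4, Pick1, Homer1, Slc17a7 and Glul) and 1 shorter (Cnih2).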

How the data were processed

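ATAC-seq and CUT&Tag libraries were grouped by the genotype, assay and replicate in their labels. The authors trimmed reads with Trim Galore, aligned them to mm10 with Bowtie 2, removed duplicates with SAMtools and called peaks per library with MACS2, in broad mode for H3K27me3. Each deposited peak carries the fold enrichment over local background and the -log10 q-value that MACS2 gave the authors. In the authors' consensus table, made with DiffBind, the mean log2 normalized reads per genotype were used; its fold change, p-value and FDR columns, the footprint table and the single-cell samples were not analysed here.

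Peaks were assigned to protein-coding genes of GENCODE M21 on GRCm38, with 5 kb on each side. Of 709410 peaks, 709356 lay inside the reference chromosomes and 54 on other sequences. Covered length is the union of peaks within a locus. Scripts ran in Python 3.11.15 with NumPy 2.4.6 and pysam 0.24.0, and were tested on simulated peaks. Sequences were read from the GRCm38 genome of RefSeq. The size of 0.5 for consensus regions follows the methods of the study. Per-library values are given for genes that met a covered-length rule, held a consensus region past 0.5, carried H3K27me3 at the promoter or held the most Tcf4 regions; ties for the fifth place were all kept. The genes, the partner and marker lists and these rules were chosen with earlier results of these data known. Counts of elements, all-gene shares of Tcf4 loci, CG dinucleotides and genes of at least 50 kb were added after seeing the values. Nothing in the labels says whether same-genotype libraries came from separate litters, so the spread may be technical. Some results on neighbouring, marker and partner genes are not reported here. Peak numbers limit precision, and no read depth is known.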

Additional observations from a re-analysis of the deposited data

How the results depend on the processing

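Restricted to a -log10 q of 5 or more, the covered-length counts became 0 longer and 2 shorter ATAC loci, 3 shorter H3K27ac loci, and 0 longer and 2 shorter H3K27me3 loci. Promoters with H3K27ac numbered 9 in WT and 8 in cKO, those with H3K27me3 1 in cKO, those with H3K4me1 2 in WT and 5 in cKO, and those with Tcf4 7, and Tcf4 regions numbered 16, of which 8 held CANNTG. This setting also turned 4 differences: cKO minus WT became -0.179 kb for Gabra6 and -0.31 kb for Gabrb2 in H3K4me1, 0.287 kb for Gabrq in H3K4me1 and 0.0325 kb for Gabrg3 in H3K27ac. The cause was not tested, beyond the fewer peaks that this setting keeps. Divided by total covered length, 3 ATAC loci were shorter, 1 H3K4me1 locus was longer and 2 shorter, and 1 H3K27ac locus was longer (Gria3) and 2 shorter. At a 2-fold minimum, 0 ATAC loci were longer and 2 shorter, 1 H3K4me1 locus was longer and 0 H3K27ac loci were shorter. On the gene body alone, 1 H3K27ac locus was longer. At a consensus size of 1, 1 region was higher and 2 lower, centring left 2 lower, and selection by position gave 7 lower. Within 30 bp, 6 Tcf4 regions held CANNTG.

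Leaving out each library in turn gave 0 to 3 longer and 3 to 8 shorter ATAC loci, 6 to 11 and 1 to 2 H3K4me1 loci, 0 to 4 and 3 to 11 H3K27ac loci, and 4 to 10 and 0 to 1 H3K27me3 loci. Promoter counts with 1 library were 17 to 21 (WT) and 17 to 20 (cKO) for H3K27ac, 6 to 7 and 8 to 12 for H3K27me3, 15 to 17 and 17 to 19 for H3K4me1, and 12 to 19 for Tcf4, and Tcf4-tag replicate 2 alone gave 35 regions at 17 genes and replicate 1 alone 65 at 24, with 18 and 30 of them holding CANNTG. Of the 27 calls of a gene in an assay, 25 held on the gene body alone, 13 after scaling and 5 with the stricter peaks. No paired analysis was possible because no result comes from a test and the libraries of a number share only that number. Of the counts, 81 of 128 stayed within 1.5 times. Peak lists without read counts limit every difference to presence, length or enrichment.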
